A study of Mus musculus with 6 samples.

Results

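The mRNA of amino acid carriers, 10 of the 14883 genes in the table, was described in mouse melanoma cells that had been left still or stretched in cycles. The genes were taken by name: Slc7a11, Slc3a2, Slc7a5, Slc7a1, Slc7a3, Slc1a4, Slc1a5, Slc6a9, Slc38a2 and Slc38a7. The list was chosen with the stretch-against-static values of these same libraries known, so its values in that contrast are a description and carry no test. The cells were B16F10luc2, an established mouse melanoma line, grown on plates with an elastic floor in DMEM with FBS. Static cells (3 samples) were kept still in the same kind of plate. Stretched cells (3 samples) went through cyclic stretch for 24 h, lengthened by 15% along both axes of the floor, 15 times per minute. The labels do not tell whether the samples of a group came from separate cultures. Each p-value below is therefore set against a spread between samples that may be technical.

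Amino acid carriers move amino acids across the plasma membrane or out of lysosomes, and most work by exchange or by cotransport with sodium. Slc3a2 encodes the CD98 heavy chain, which brings several SLC7 light chains to the cell surface; the light chain does the transport. Slc7a11 is the cystine-glutamate exchanger xCT, which feeds glutathione synthesis and, in pigment cells, supplies cysteine for pheomelanin. Several carriers are known targets of ATF4, the transcription factor that rises when amino acids run short, and Slc7a11 is also a known target of NRF2, the regulator of antioxidant genes.

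The known binding letters of these regulators were looked for in the RefSeq promoter windows of GRCm38.p6, which reach from 250 bases before to 50 bases after a gene's start. Windows were found for 7 of the 10 carriers, without Slc7a5, Slc7a3 and Slc1a5. TGATGNAA, the core of the C/EBP-ATF composite element, was searched on both strands. It was in the windows of 2 of the 7 carriers, Slc7a11 and Slc1a4, and in 3.97% of all windows of this length. The stretches of these carriers are shown beside those of 3 other genes described below that hold the core wholly before their start. Slc7a7, another carrier described below, also holds the core wholly before a start and is not shown. The match is in capitals, and each stretch is read in the direction in which it spells the core.
Slc7a11, chr3:50443663-50443688, minus strand: tcatgtggcTGATGCAAacctggaga
Slc7a11, chr3:50443644-50443669, plus strand: gctgcatgaTGATGCAAattctccag
Slc1a4, chr11:20332701-20332726, plus strand: ggctggagaTGATGCAAcgcaggagg
Asns, chr6:7693216-7693241, minus strand: ccagccacaTGATGAAActtcccgca
Chac1, chr2:119351040-119351065, minus strand: tggcaggagTGATGCAAcggcaggga
Got1, chr19:43524691-43524716, plus strand: aggcttgtaTGATGCAAccaatgcaa
Asns, asparagine synthetase, Chac1, a glutathione-degrading enzyme, and Got1, a cytosolic aspartate aminotransferase, are no carriers. The Slc7a11 window holds the core once on each strand, 66 to 59 and 47 to 40 bases before the start. The 100 bases before that start, on the minus strand at chr3:50443614-50443713, show both matches in capitals, the nearer one reversed.
Slc7a11: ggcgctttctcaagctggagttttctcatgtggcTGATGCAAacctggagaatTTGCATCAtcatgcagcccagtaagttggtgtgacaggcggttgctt
The 100 bases before the Slc3a2 start, on the minus strand at chr19:8713898-8713997, hold no match and are shown as a promoter window of its partner. The starts used for Slc7a11 and Slc3a2 lie inside the spans of these genes given below, not at their upstream ends. No window was found at those ends.
Slc3a2: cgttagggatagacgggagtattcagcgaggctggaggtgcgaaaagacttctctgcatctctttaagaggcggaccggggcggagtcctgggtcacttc

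Among the other genes, TGATGNAA was in the windows of 1 of 39 other amino acid carriers (Slc7a7) and of 4 of 48 genes around the carriers (Asns, Chac1, Got1 and Trib3). It was in 2.65% of the 9892 tested genes with a window. Of these, 381 were called lower in stretched cells by over 1.5-fold in the test described below, Slc7a11 and Slc1a4 among them. TGATGNAA was in 30 (7.87%) of the 381. The match of Slc1a4 spans the start itself, from 4 bases before to 4 after. Of the 7 carriers of the list with a window, only Slc7a11 thus has a match in the bases before the start alone. TGACNNNGC, the core of the antioxidant response element, was searched on both strands too. It was in the windows of 3 of the 7 carriers, Slc38a2, Slc6a9 and Slc7a1, and in none of those with TGATGNAA. It was in 12.4% of all windows and, per gene, in 16.8% of the tested genes with a window and 12 of the 48 genes around the carriers. Among the same 381 genes it was in 76 (19.9%). Slc6a9 has 3 windows and Slc7a1 has 2, so they had more letters to match. A match is a description of letters, and a missing match says only that they are not in this window.

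Total counts per library ran from 19469286 to 36351400, and 12377 genes passed the filter on low counts. Of these, 6298 (50.9%) were called by edgeR's quasi-likelihood test at a Benjamini-Hochberg adjusted p under 0.05, 3211 of them lower in stretched cells (25.9%) and 3087 higher (24.9%). With library size alone as the scaling, 2401 were lower and 4117 higher, 63.2% of the calls against 49.0%. The cells carried the melanocyte genes: all 7 markers looked for were in the table, and their summed level was 22410 to 24790 CPM (counts scaled to library size) in static and 19863 to 20454 CPM in stretched libraries. Tyrp1, a melanosome enzyme, led them and fell from 9729 to 7830.3 CPM, as did the melanosome protein Pmel, from 6073 to 4982 CPM. Mitf, the melanocyte transcription factor, rose from 325 to 422 CPM (adjusted p = 1.1e-06, edgeR), while Sox10, Mlana and Tyr were not called. Dct was called lower, from 5074 to 4768 CPM (adjusted p = 0.0354, edgeR). That call was lost with library size alone as the scaling (log2 difference -0.03), and without static replicate 1 or any 1 stretched replicate. Leukocyte markers summed to at most 1.49 CPM and fibroblast markers to at most 17.9 CPM in any library, with 2 of 5 and 4 of 5 in the table. Endothelial and epithelial markers, each with 1 in the table, stayed at or under 0.770 CPM. The marker sums of melanocytes did not overlap between groups, with members that went both ways, and their part in the results was not tested. In bulk RNA, fewer cells of a type and less RNA per cell cannot be told apart.

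In stretched cells 9 of the 10 carriers were lower and 1, Slc7a3, was higher. Slc6a9 and Slc7a11 were lower by more than 3-fold, 4 others by 1.5- to 2-fold (Slc38a7, Slc3a2, Slc1a4 and Slc1a5), and 3 by less than 1.5-fold (Slc7a5, Slc7a1 and Slc38a2). In each of these 9 the libraries of the groups did not overlap, as was so, in the lower direction, for 29.4% of all tested genes. All 9 were also among the genes called lower, as were 25.9% of tested genes. Of the 9, 6 were called and lower by over 1.5-fold, as were 3.81% of tested genes. Since the list was chosen on this contrast, nothing is read from these counts. Together the 10 genes held 0.307%, 0.296% and 0.313% of all counts in the static libraries and 0.201%, 0.199% and 0.197% in the stretched ones.

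**Figure D1:**
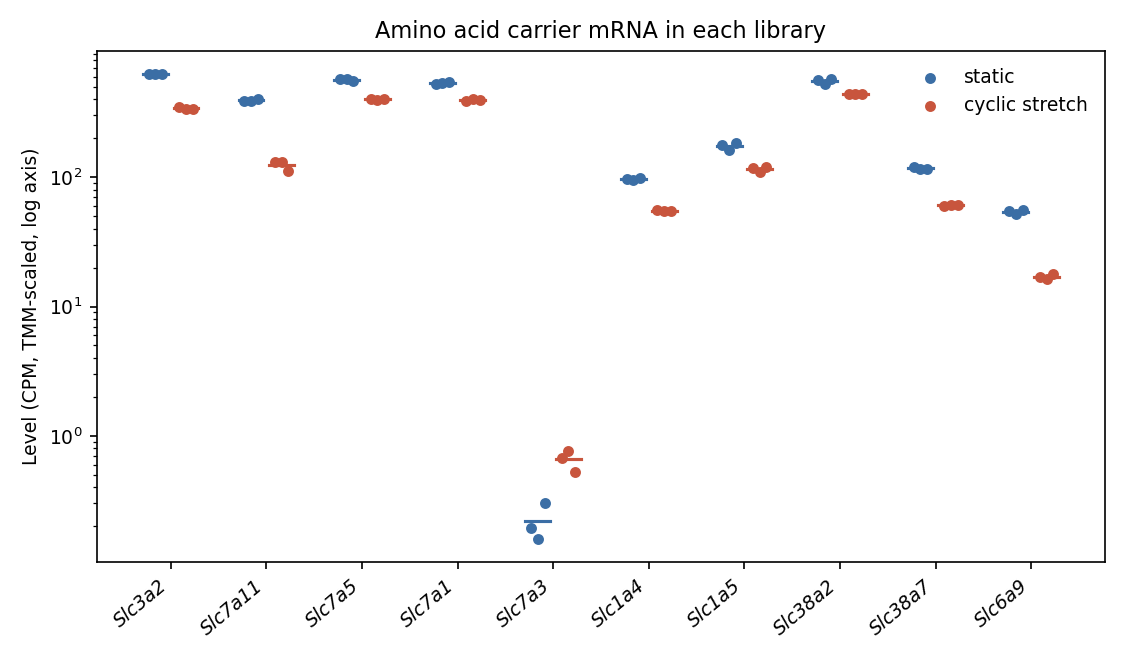
Level of each of the 10 carriers in each library, in CPM on a log axis (points, 3 static and 3 stretched libraries, with the mean of each group). Static and stretched libraries are apart for each gene, with the stretched ones lower for 9 and higher for Slc7a3.

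The cystine exchanger gene Slc7a11 (Entrez 26570, GRCm38.p6 chromosome 3, 50364936 to 50499087) stood at 390.1, 388 and 400.3 CPM in static replicates 1, 2 and 3. In stretched replicates it stood at 132, 131 and 111 CPM. Stretched replicate 3 was the lowest of the 6 libraries, and the stretched libraries varied more (SD 11.8 around 125 CPM) than the static ones (SD 6.56 around 393 CPM). The fitted difference was -1.65 on the log2 scale (SE 0.0533), or 3.15-fold lower. It was the 21st largest loss among the 12377 tested genes.

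Its heavy chain Slc3a2 (Entrez 17254, chromosome 19, 8706882 to 8723369) was lower too, but by less. The static libraries held 628, 626 and 627 CPM and the stretched ones 348, 337 and 336 CPM, a difference of -0.88 on the log2 scale (SE 0.0332), or 1.84-fold. The 3 static libraries lay within an SD of 0.937 CPM. The third partner, Slc7a5 (Entrez 20539, chromosome 8, 121881146 to 121907686), is the LAT1 light chain that brings leucine and other large neutral amino acids in. It stood at 574, 573 and 551 CPM in static and at 404, 396 and 406 CPM in stretched libraries, 1.41-fold lower (log2 difference -0.49, SE 0.0338). All 3 stretched libraries lay below the lowest static one.

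The heavy chain and its light chains thus differed in the size of their loss. To set genes side by side, CPM were divided by the length of the longest transcript. Per kilobase, Slc3a2 stood at 0.9995, 0.9998 and 1.02 times the sum of its light chains in the table (Slc7a5, Slc7a6, Slc7a7, Slc7a8 and Slc7a11) in static libraries. In stretched libraries it stood at 0.848, 0.823 and 0.822 times that sum. No stretched value reached the lowest static one. By the median transcript length Slc3a2 stood at 0.667, 0.667 and 0.685 times the sum in static libraries. The stretched values were then 0.548, 0.532 and 0.529. The size of this ratio thus depends on the length used, while it was lower in stretched libraries with either. Within the light chains the ratio of Slc7a11 to Slc7a5 was 0.259, 0.258 and 0.277 in static and 0.125, 0.126 and 0.104 in stretched libraries, so the share of Slc7a11 among all light chains went from 19.2% to 9.28% and that of Slc7a5 from 72.6% to 78.5%. With the median transcript length the share of Slc7a11 went from 12.8% to 5.96%. These ratios are made of the same values as the list and carry no test. Slc7a6, a further light chain named here after its values were seen, stood at 60.2 ± 1.12 CPM in static and 61.0 ± 3.84 CPM in stretched cells (SD, n = 3 each), with overlapping libraries.

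**Figure D2:**
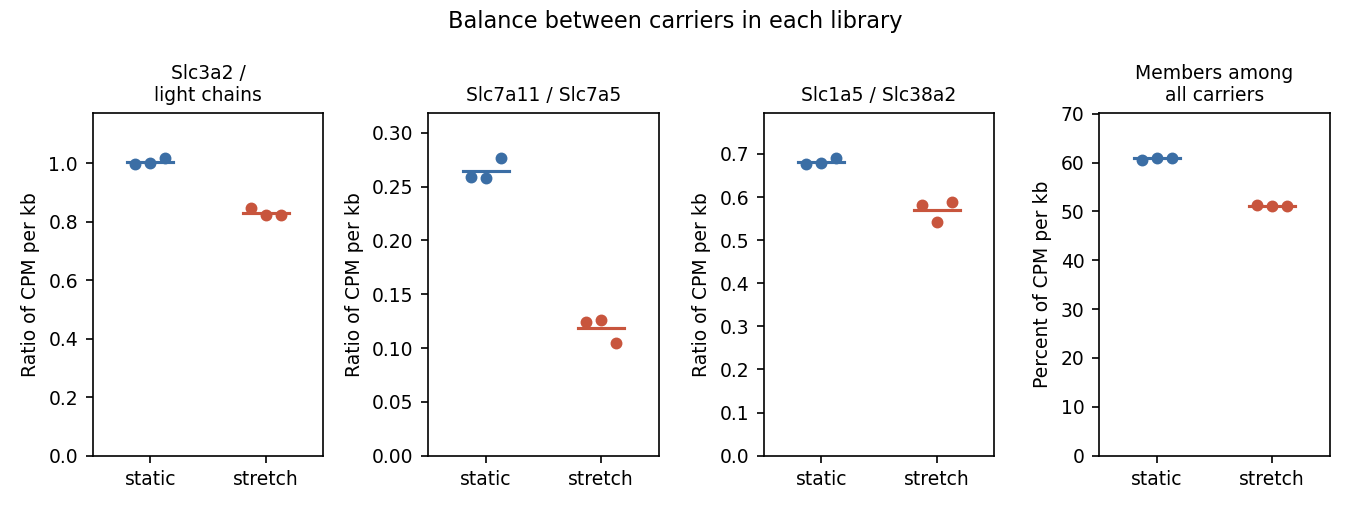
Ratios and shares among the carriers per kilobase of the longest transcript, 1 point for each library, a line at each mean and 1 panel for each quantity (the last is the share of the 10 genes among all carriers), each axis starting at 0. The ratio of Slc3a2 to its light chains was 1.006 ± 0.0115 in static and 0.831 ± 0.0148 in stretched libraries (SD, n = 3 each).

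Slc7a1 (Entrez 11987, chromosome 5, 148327410 to 148399904), the main carrier of arginine and lysine in most cells, stood at 527, 533 and 543 CPM in static libraries. It stood at 391, 401 and 392 CPM in stretched ones, 1.35-fold lower (log2 difference -0.44, SE 0.0331). No stretched library reached the lowest static one. Slc7a3 (Entrez 11989, chromosome X, 101079146 to 101090452), its relative found mostly in brain, was close to undetected: 5, 3 and 9 counts in static and 25, 17 and 11 in stretched libraries. That is 0.194, 0.160 and 0.302 CPM against 0.672, 0.770 and 0.528 CPM, a log2 difference of 1.51 (SE 0.364). It passed the filter on low counts only through the stretched libraries, so it had to differ in that direction. Its summed counts were 17 in static and 53 in stretched libraries, the fewest of the 10 genes.

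The SLC1 members are sodium-coupled exchangers of small neutral amino acids. Slc1a4 (Entrez 55963, chromosome 11, 20302180 to 20332713), known as ASCT1 and a carrier of serine and alanine, held 96.4, 94.7 and 98.8 CPM in static and 55.5, 54.5 and 55.1 CPM in stretched libraries. That is 1.76-fold lower (log2 difference -0.81, SE 0.0374), with an SD of only 0.532 CPM among the stretched libraries. Slc1a5 (Entrez 20514, chromosome 7, 16781334 to 16798274), or ASCT2, which brings glutamine in, held 176, 163 and 183 CPM in static and 118, 109 and 119 CPM in stretched libraries, 1.51-fold lower (log2 difference -0.59, SE 0.0465). Replicate 2 was the lowest in each group, and the groups stayed apart.

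Slc38a2 (Entrez 67760, chromosome 15, 96687392 to 96699728), the sodium-coupled glutamine carrier SNAT2 that cells raise when amino acids are scarce, had the smallest difference of the list. It stood at 567, 523 and 575 CPM in static and 442, 439.9 and 440.5 CPM in stretched libraries. The log2 difference was -0.33 (SE 0.0388), 1.26-fold lower; static replicate 2 was the nearest to the stretched libraries. Slc38a7 (Entrez 234595, chromosome 8, 95835920 to 95853577), which exports glutamine from lysosomes, stood at 119.8, 116 and 116 CPM in static and 60.0, 61.1 and 61.2 CPM in stretched libraries. It was 1.93-fold lower, with a log2 difference of -0.95 (SE 0.0366). Of the SLC38 carriers in the list, the lysosomal one had the larger loss. Slc1a5 and Slc38a2 are both glutamine carriers of the plasma membrane. The ratio of Slc1a5 to Slc38a2 per kilobase was 0.682 ± 0.00791 in static and 0.571 ± 0.0257 in stretched libraries (SD, n = 3 each), with no overlap. With the median transcript length it was 2.30 and 1.92, so which of these genes is the higher per kilobase depends on the length used, while the ratio was lower in stretched libraries with either. Slc38a1, the close relative of Slc38a2 described below, is not part of this ratio. Per kilobase of the longest transcript it stood at 90.7 CPM in static and 85.2 CPM in stretched cells.

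Slc6a9 (Entrez 14664, chromosome 4, 117835258 to 117869305), the glycine carrier GLYT1, had the largest loss of the list. It held 55.2, 51.5 and 55.5 CPM in static libraries and 16.8, 16.3 and 17.9 CPM in stretched ones. The log2 difference was -1.68 (SE 0.0537), 3.20-fold lower and the 19th largest loss of all tested genes. The groups were far apart beside an SD of 2.23 CPM in static and 0.812 CPM in stretched libraries.

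Per kilobase of the longest transcript, Slc3a2 led the 10 genes in static cells (222.9 ± 0.333 CPM per kb, SD, n = 3), before Slc7a5 (160.9 ± 3.62), Slc38a2 (90.7 ± 4.60) and Slc7a1 (74.4 ± 1.11 CPM per kb). Slc1a5 (61.9), Slc7a11 (42.6), Slc38a7 (35.2), Slc1a4 (24.6) and Slc6a9 (15.5 CPM per kb) followed, and Slc7a3 was last. No neighbours in this order overlapped over the 3 static libraries. In stretched cells the order was the same but for Slc7a11, which went from the sixth place to the eighth, at 13.5 ± 1.28 CPM per kb. There its libraries overlapped with those of Slc1a4 (14.0 ± 0.136 CPM per kb). Of the 45 amino acid carriers in the table, 44 had a transcript length (Slc66a1 had none), and among these Slc7a11 ranked 9 in static and 16 in stretched cells. The taurine carrier Slc6a6, named after its values were seen, ranked 3 and then 1, at 147.8 and 145.5 CPM per kb. The 10 genes made up 60.6%, 60.9% and 61.0% of the summed level per kilobase of the 44 carriers in static libraries and 51.3%, 51.1% and 51.1% in stretched ones. Order and shares depend on the length used. With the median transcript length in place of the longest, the share was 48.8% and 38.7%, and Slc6a6 ranked 1 in both groups, followed by Slc7a5 and Slc3a2. Slc7a11 then ranked 8 and 13, Slc38a2 went from the third to the sixth place among the 10 genes in static cells, and Slc6a9 (42.6 CPM per kb) stood above Slc1a4 (24.8 CPM per kb).

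**Figure D3:**
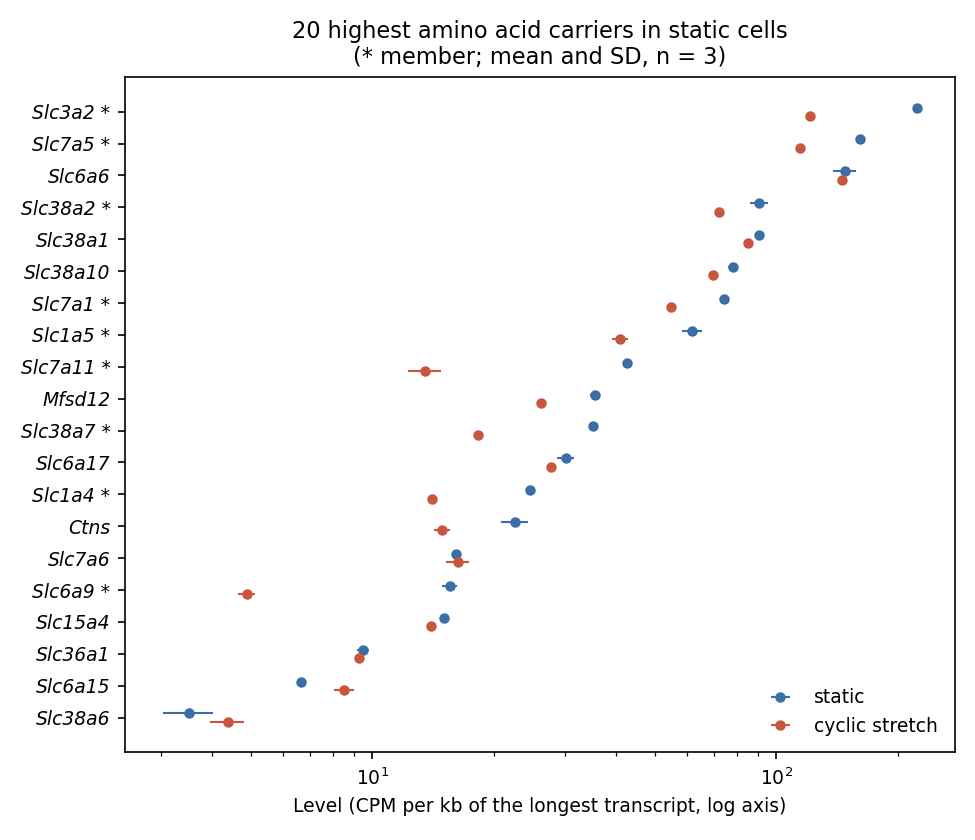
Level of the 20 amino acid carriers that were highest in static cells, in CPM per kilobase of the longest transcript on a log axis (points are means of 3 libraries, bars the SD, stars the genes of the list). With this length Slc3a2 leads in static cells at 222.9 CPM per kb and Slc6a6 in stretched cells at 145.5 CPM per kb; with the median length Slc6a6 leads in both.

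The other carriers, listed by family, give the setting. The 10 genes, chosen with this contrast known, had been taken out of these families. The counts of the rest therefore depend in part on that choice. Of 52 such genes, 35 were in the table and 25 were tested; 11 were called lower (44.0%), 5 higher and 9 neither, with a median log2 difference of -0.10 against 0.0038 over all genes. Other Slc genes of any substrate had 80 of 188 called lower (42.6%) and 26 higher, with a median of -0.10. Of the 25, 1 (4.0%) was called and lower by over 1.5-fold (Ctns), against 3.81% of all tested genes. In the other direction 2 were called and higher by over 1.5-fold (Slc7a14 and Slc6a18, both low), as were 423 of the 12377 tested genes. The 16 calls became 10, 9 and 10 without static replicate 1, stretched replicate 1 and stretched replicate 2. Those lower then numbered 7, 6 and 7, and those higher 3 each time; leaving out static replicate 2 also left 3 higher.

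The 3 other carriers of lowest p were lysosomal or melanosomal. Ctns, which exports cystine from lysosomes, fell from 61.3 ± 4.68 to 40.6 ± 1.84 CPM (SD, n = 3 each; log2 difference -0.60, adjusted p = 6.08e-07 by edgeR). Mfsd12, which brings cysteine into melanosomes, fell from 141 ± 3.66 to 104 ± 2.35 CPM (adjusted p = 1.96e-07, edgeR). Slc66a1, an exporter of lysine and arginine from lysosomes, fell from 18.6 ± 0.376 to 13.4 ± 0.522 CPM (adjusted p = 2.3e-05, edgeR). In these 3 genes no stretched library reached the lowest static one. Slc36a4, of the same list, rose from 18.7 to 23.1 CPM (adjusted p = 0.00123, edgeR), and that list had 4 lower and 1 higher of 6.

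Outside the lysosomal list, the leucine uniporter Slc43a2 fell from 11.8 to 8.26 CPM (adjusted p = 0.000151, edgeR). Slc6a15, a carrier of branched-chain amino acids and proline, rose from 24.1 ± 0.573 to 30.6 ± 1.73 CPM (SD, n = 3 each; adjusted p = 0.000121, edgeR). Among the 5 other SLC38 genes 3 were called lower and 1 higher: Slc38a10 from 358 to 319 CPM, Slc38a3 from 3.31 to 2.21 CPM and Slc38a1, the close relative of Slc38a2, from 659 to 619 CPM, with Slc38a6 from 13.8 to 17.2 CPM. The fall of Slc38a1 was small (log2 difference -0.09, adjusted p = 0.0351, edgeR). Without static replicate 1, or stretched replicate 1, 2 or 3, it was not called (log2 differences -0.09, -0.10, -0.10 and -0.07, adjusted p = 0.103, 0.0668, 0.0728 and 0.152, edgeR). Nor was it called with library size alone as the scaling (-0.03) or with a replicate block (-0.09, adjusted p = 0.0644, edgeR). The call of Slc38a6 (log2 difference 0.29) was lost without static replicate 1 or stretched replicate 2 (0.24 and 0.22, adjusted p = 0.0926 and 0.101, edgeR), and that of Slc38a10 with an offset for GC content and length, at a log2 difference of -0.06.

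Other calls were weak: each was lost when any of 3 or 4 libraries was left out, with the direction kept. Slc43a1, a uniporter like Slc43a2, stood at 6.07 and 4.61 CPM and lost its call without static replicate 1, stretched replicate 1 or stretched replicate 3 (log2 difference -0.41, and -0.32, -0.34 and -0.34 without them, adjusted p = 0.0948, 0.0959 and 0.0658, edgeR). Slc7a7, a light chain of Slc3a2, stood at 4.19 and 3.17 CPM and lost it without static replicate 3 or stretched replicate 1 or 2 (log2 difference -0.42, and -0.24, -0.42 and -0.33 without them, adjusted p = 0.227, 0.110 and 0.145, edgeR). Slc6a17 (190.1 and 175 CPM) lost its call without static replicate 1 or 2 or stretched replicate 1 or 2 (adjusted p = 0.0560 to 0.0970, edgeR), with log2 differences from -0.11 to -0.09 against -0.12, and -0.05 with library size alone. Slc7a14 (1.74 and 2.72 CPM) lost it without static replicate 1 or 2 or stretched replicate 1 or 3 (adjusted p = 0.0559 to 0.168, edgeR), with log2 differences from 0.37 to 0.67 against 0.59. Slc6a18 (0.545 and 0.980 CPM) lost it without static replicate 2 or stretched replicate 1 or 2 (adjusted p = 0.0510 to 0.122, edgeR), with log2 differences from 0.67 to 0.83 against 0.83. Slc1a3, the tested glutamate carrier, held 0.595 and 0.307 CPM and was not called, though it was without static replicate 2 (log2 difference -1.16 against -0.92, adjusted p = 0.0328, edgeR).

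**Figure D4:**
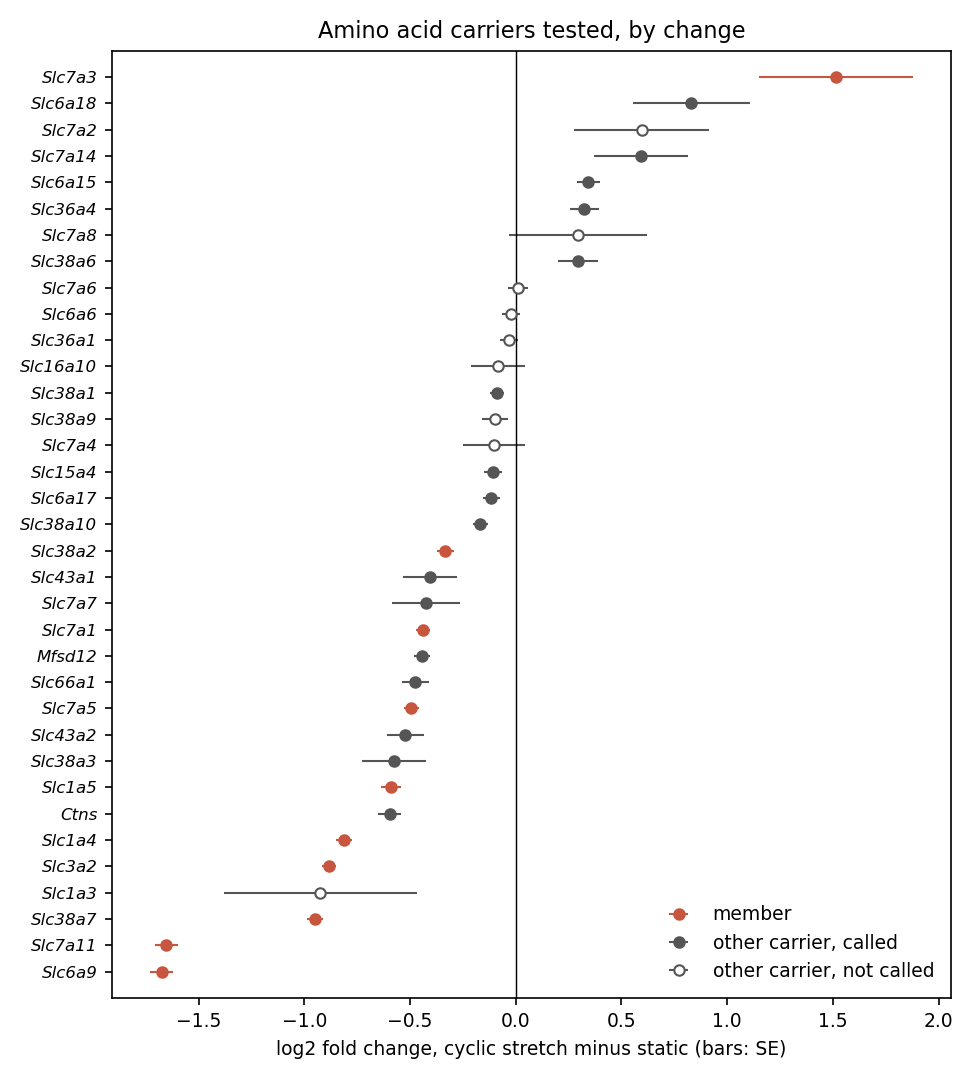
Log2 difference between stretched and static cells for the 10 carriers (red points, marked as members of the list, no test) and the 25 other tested amino acid carriers (grey, filled where called, open where not), with SE bars. Of the other carriers, Ctns was called lower and Slc7a14 and Slc6a18 higher by over 1.5-fold.

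Genes around the carriers, those known to control them or to use what they carry, were lower more than higher: of 53 tested and given here, 29 were called lower, 6 higher and 18 neither, with a median log2 difference of -0.17. That is 54.7% lower and 11.3% higher, against 25.9% and 24.9% over all tested genes, which are also the shares beside which the counts of each smaller list below stand. Of the 53, 14 (26.4%) were called and lower by over 1.5-fold, against 3.81% of all tested genes. These lists were also chosen with earlier results of these data known, so the shares are a description and carry no test. Among 12 genes of the eIF2 alpha kinase and ATF4 branch, 7 were called lower and 1 higher. Trib3, a pseudokinase and target of ATF4, fell from 214 ± 1.10 to 47.8 ± 1.46 CPM (SD, n = 3 each; log2 difference -2.17, adjusted p = 7.56e-15, edgeR). Chac1 fell from 85.3 to 39.2 CPM and Ddit3, the stress transcription factor CHOP, from 92.6 to 39.6 CPM. Atf4 itself, named after its values were seen, ranged from 583 to 622 CPM in static and from 351 to 359.9 CPM in stretched libraries (log2 difference -0.75, adjusted p = 6.42e-10, edgeR). The kinase gene Eif2ak2 rose from 37.8 to 43.9 CPM, while Eif2ak1, Eif2ak3 and Eif2ak4 were not called. ATF4 is controlled largely by translation, which mRNA levels do not show.

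For cystine and glutathione, the genes next to Slc7a11, 5 of 8 were called lower and 1 higher. Gclm, the modifier subunit of the first enzyme of glutathione synthesis, fell from 143 ± 6.30 to 68.6 ± 5.76 CPM (SD, n = 3 each; log2 difference -1.05, adjusted p = 1.22e-09, edgeR). Its catalytic partner Gclc, named after its values were seen, held 78.7 and 81.5 CPM and was not called. Cth, which makes cysteine inside the cell, fell from 34.8 to 20.7 CPM and the lipid peroxide enzyme Gpx4 from 268 to 221 CPM, while Ggct, which breaks down gamma-glutamyl peptides, rose from 3.01 to 5.12 CPM. For the regulators, Nfe2l2 (NRF2, named after its values were seen) held 134 and 135 CPM and was not called. Its repressor Keap1 fell from 71.1 to 61.8 CPM, a call that was lost with an offset for GC content and length.

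For the glutamine carried by Slc1a5, Slc38a2 and Slc38a7, 3 of the 7 genes given here were called lower. Asns, which uses glutamine to make asparagine, fell from 459 ± 27.4 to 258 ± 3.95 CPM (SD, n = 3 each; log2 difference -0.83, adjusted p = 1.28e-09, edgeR), and Gpt2, a mitochondrial alanine aminotransferase, from 68.2 to 38.6 CPM. Got1 fell from 206 to 182 CPM.

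For serine and glycine, next to Slc6a9 and Slc1a4, 4 of 7 were called lower and 2 higher. Psph, the last enzyme of serine synthesis, fell from 115 ± 3.26 to 66.9 ± 1.65 CPM (SD, n = 3 each; adjusted p = 1.03e-09, edgeR), Psat1 from 424 to 297 CPM and the mitochondrial Shmt2, which turns serine into glycine, from 607 to 429.9 CPM. Its cytosolic counterpart Shmt1 rose from 30.1 to 40.6 CPM (adjusted p = 5.92e-06, edgeR), as did Gcsh of the glycine cleavage system, from 21.2 to 26.6 CPM. Among branched-chain genes, next to Slc7a5, 4 of 6 were called lower and 2 higher. Bcat1, the cytosolic aminotransferase, fell from 165 to 121 CPM and Bckdha, a subunit of the branched-chain keto acid dehydrogenase, from 22.8 to 14.8 CPM. Bckdhb, its partner subunit, rose from 7.11 to 12.0 CPM (adjusted p = 3.01e-06, edgeR), as did Dbt, from 37.2 to 44.5 CPM.

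For arginine, next to Slc7a1, 1 of 4 genes was called lower, a share near the 25.9% of all tested genes: Asl, which makes arginine, fell from 63.8 to 48.6 CPM. Of 6 sensors that tell mTORC1 about amino acids, 4 were called lower and none higher. Sesn2, a leucine sensor of the sestrin family that ATF4 is known to raise, fell from 69.7 ± 1.71 to 31.3 ± 0.537 CPM (SD, n = 3 each; log2 difference -1.15, adjusted p = 8.59e-11, edgeR). Sesn3 fell from 23.2 to 17.4 CPM and Bmt2, the S-adenosylmethionine sensor SAMTOR, from 61.4 to 46.9 CPM.

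**Figure D5:**
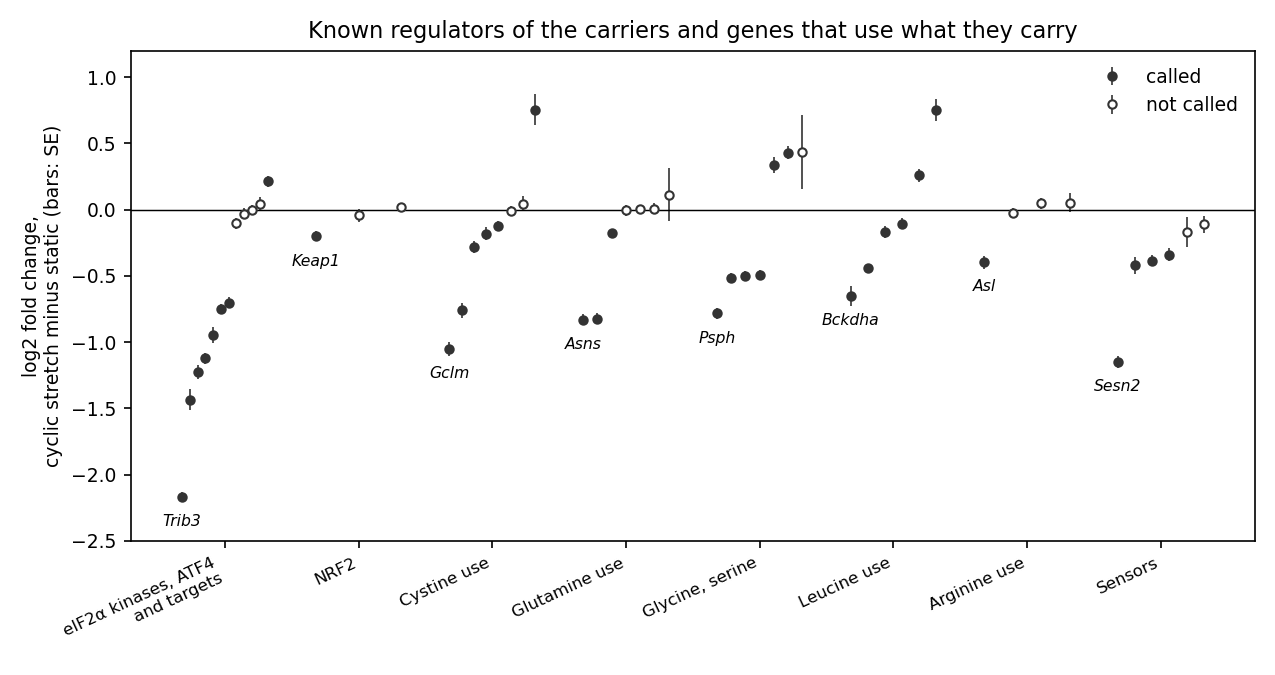
Log2 difference between stretched and static cells for known regulators of the carriers and genes that use what they carry, with SE bars (filled where called, open where not). Of the 53 genes, 29 were called lower and 6 higher.

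By distance between log2 CPM profiles over the 6 libraries, each centred on its mean (smaller is more alike), Slc7a11 was nearest to Slc6a9 (0.297), Gsta3 (0.332) and Ddit4 (0.334). Slc6a9 was nearest to Ddit4 (0.158) and Gsta3 (0.167), so Gsta3 and Ddit4 were near both. Slc1a4 was nearest to Sqstm1 (0.0393) and Gpt2 (0.0526), and Slc3a2 to Nfe2l1 (0.0632) and Eif4ebp1 (0.0655). For Slc7a5 the nearest were Mllt11 and Tmem62, for Slc7a1 Hspa5 and Spns1, for Slc1a5 Blvrb and Ppp2r5b, for Slc38a2 Rara and Mfhas1, for Slc38a7 Lonp1 and Hoxb9, and for Slc7a3 Rragb. A profile of 6 libraries in 2 groups is mostly the size of 1 difference, so the distances rank genes of like fold change. Slc7a3 is an exception, since its levels (0.218 and 0.656 CPM) are near the 0.5 CPM added before the log, which shrinks its difference. Its log2 difference was 1.51, while Rragb went only from 1.34 to 2.38 CPM.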

How the data were processed

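RNA of 3 static and 3 cyclically stretched B16F10luc2 samples was collected in Trizol and purified on columns, and libraries were made by BGI, per the labels. Values in the deposited table are estimated counts of genes made by the authors, all whole; per the submitters' processing notes Salmon 1.4.0, mm10 and GRCm38 were used. Not given in the sources used here are their roles, the index, strand and the step to genes, so paralogs share reads by a model. Symbols and positions came from RefSeq GRCm38.p6 (14875 of 14883 matched; the other 8 held at most 0.0825% of the counts) and lengths from GENCODE M21. The carriers, lists and rules were chosen with earlier results of these data known. Of the listed genes, 1 is not reported here and was left out of its list's counts and figure.

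Low genes were removed by filterByExpr (minimum count 10) in edgeR 4.0.16 under R 4.3.3, and libraries were scaled by TMM (factors 0.966 to 1.02) and fitted by a quasi-likelihood model of group alone with 4 residual degrees of freedom, two-sided. p-values were adjusted over 12377 genes. An SE is the log2 difference divided by the root of F. An exact test of 3 against 3 cannot go below p = 0.1. Named genes, besides the 10, were the 3 called genes of lowest p per direction in each list (the 2 most abundant where none was called) and the 3 of nearest profile, with a pseudocount of 0.5 CPM. Alternatives were RLE, upper quartile and library-size scaling, no filter, a 5 CPM filter, DESeq2 1.42.0, limma-voom (limma 3.58.1), glmTreat against 1.2-fold, a replicate block, a GC and length offset (spline, 5 degrees of freedom, 98.0% of genes) and leaving out each library. Replicates of a group differed beyond sampling noise (chi-square per degree of freedom 1.88 to 7.64). The procedure was tested on simulated data.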

Additional observations from a re-analysis of the deposited data

How the results depend on the processing

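The log2 differences of the 10 carriers, given as a description, kept their sign in each alternative that gave a value; for Slc7a3 the filter on low counts had fixed the sign, and at 5 CPM it was filtered out. That of Slc7a11 ranged from -1.82 (GC and length offset) to -1.58 on the log2 scale. With glmTreat, 1592 genes were called, 679 higher and 913 lower, with 4 other amino acid carriers (4 lower, 0 higher) and 3 genes around the carriers higher. Of the 10 carriers, 8 were then among the genes called lower, and Slc38a2 was not. Other carriers called higher were 3 with the 5 CPM filter and 3 with DESeq2, and those lower were 7 with library size alone. Leaving out 1 library gave 9 to 15 other carriers called, 3 to 5 higher and 6 to 11 lower. The ratio of Slc3a2 to its light chains, stretch over static, was 0.826, or 0.797 with the median length and 0.864 over Slc7a5 and Slc7a11 alone. In the bases before the start alone, 1 carrier of the list held TGATGNAA. The cause was not tested. The labels do not say what the replicate numbers mean. Correlations of same-numbered samples were -0.016, -0.025 and -0.11, which cannot tell whether these samples were paired. With a replicate block, 5967 genes were called, 3043 lower and 2924 higher, with 14 other carriers. Counts of 3 to 25 per library limit Slc7a3; the other 9 carriers had at least 360.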
